A study of Homo sapiens with 6 samples.

Results

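Estrogen receptor coactivators and corepressors were followed in 2 cell lines made from the same breast cancer model, one luminal and expressing estrogen receptor (ER), the other luminobasal. The 9 genes were NCOA1, NCOA2, NCOA3, EP300, CREBBP, PELP1, NRIP1, NCOR1 and TLE3, chosen by name, and every array probe that carried one of these names was used. This gave 14 of the 34127 gene probes of the array, and 9 of its 25940 gene names. Of the 9 genes, PELP1 was 2.40-fold higher in the luminobasal line and TLE3 was 2.54-fold lower, the latter falling short of 2-fold with another background correction. NCOR1 was 3.36-fold higher on 1 of its 3 probes, whereas the others gave log2 differences of 0.06 and -0.01, and with the probes averaged NCOR1 was not called. The other 6 did not reach the threshold with the probe that represented them, although NRIP1 had another probe that did. Of all genes tested, 45.7% passed the same threshold.

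The luminal line, pLUM, was grown from an E (estradiol) supplemented T47Dco tumor as CLD3+CD49f- cells, and was treated with 1 nM E for 72 h before RNA was taken. The luminobasal line, pLB, came from a tumor under E and progesterone, was sorted as CLD3-CD49f+, and was kept and harvested under E withdrawal (EWD). T47D is an established human luminal breast cancer line, T47Dco is a subline of it, and the tumors were xenografts in ovariectomized mice. Each line was fixed, stained for cytokeratin 5 (CK5) and sorted again, and 3 sorts of each were hybridized to 1-colour Agilent arrays, but which CK5 fraction was hybridized is not stated in the sources used here. Each line is a single derivation, and line and hormone coincided on all 6 arrays, so that the effect of the cell type and that of E cannot be told apart. The p-values below measure the spread between sorts of 1 line, and at 3 arrays against 3 an exact permutation test cannot give a two-sided p below 0.1.

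ER bound to estradiol recruits coactivators, which acetylate or methylate histones and contact the transcription machinery, whereas corepressors bring histone deacetylases and dampen transcription. The same coregulators also serve other nuclear receptors and other transcription factors, so that they are expressed in cells without ER as well. In breast cancer the balance of coactivators and corepressors has been studied mainly for its bearing on the response to hormones and antiestrogens.

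Signals are given as log2 of the background-corrected intensity relative to the 75th percentile of the same array, so that 0 is the level that 75 percent of probes did not exceed. This percentile was 449 to 869 intensity units on the 6 arrays, and no gene spot was saturated. Across tested probes, Pearson's r was 0.984 to 0.991 within pLUM, 0.972 to 0.989 within pLB and 0.780 to 0.806 between the lines, and probes are not independent replicates. A probe was tested if it was well above background on at least 3 arrays, and called if the lines differed at least 2-fold with a Benjamini-Hochberg adjusted p under 0.05 in limma, adjusted over all 23105 probes tested. At this threshold 45.6% of all tested probes were called, so that a call by itself does not set a coregulator apart. By the brightest tested probe of each gene, basal markers were called higher in pLB in 7 of 7 cases, against 22.7% of all genes. Of the luminal markers, 8 of 9 were called lower, against 23% of all genes. The exception was KRT18, a simple epithelial keratin, at a log2 difference of -0.62. The probes of KRT8 disagreed, since 2 of 3 were called lower and 1 higher. KRT5, KRT14 and TP63 were well above background on 0 pLUM arrays, and PGR on 0 pLB arrays. They passed the filter only through the line where they were high, so that their direction is not independent support. CLDN3, ITGA6 and KRT5 are among the luminal and basal markers and encode proteins used for sorting, CK5 being the product of KRT5. Of 7 markers of immune, endothelial and stromal cells, 4 were tested, of which CD68 was 2.87-fold and VWF at least 1.80-fold higher in pLB. PTPRC and COL1A1 were not called by the same rule, although 1 of the 2 PTPRC probes was called lower. CD3E, PECAM1 and PDGFRB did not pass the filter, and what part, if any, other cells had in the values below was not tested. In bulk RNA, fewer cells of a type and less RNA per cell cannot be told apart.

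The receptors to which these coregulators bind were themselves different between the lines. ESR1, which encodes ER, was lower in pLB on each of its 3 probes, by 3.47-fold on the probe that represented it (adjusted p = 0.00373 in limma) and by at least 20.4-fold and at least 38.7-fold on the others. PGR, the progesterone receptor and a classical E target, was at least 67.5-fold lower. The factors that open chromatin for ER were lower as well, FOXA1 by 4.82-fold and GATA3 by 41.2-fold. ESR2, the second estrogen receptor gene, was well above background on 0 of 6 arrays.

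Of the 14 coregulator probes, 13 were tested, and each of the 9 genes had a tested probe. As for all genes, the tested probe with the highest mean over the 6 arrays represented the gene. By this rule 2 of the 9 genes were called higher in pLB (22.7% of all 17670 genes tested) and 1 was called lower (23% of all genes), where 45.7% of all genes were called in either direction. Counting probes, 2 of 13 were called higher (21.9% of all probes) and 2 lower (23.7%). Without the fold threshold, 5 of the 9 genes had an adjusted p under 0.05, against 63.4% of all genes. The median log2 difference of the 9 genes was 0.47, the value of NCOA1, which was not called, whereas that of all genes was 0.04. This median depends on the choice of probe. With the probes of each gene averaged, the log2 difference was 0.02 for NCOA1, 0.60 for NCOR1 and -0.50 for NRIP1. By the representative probe, 7 of the 9 were positive and 2 negative, where 50.9% of all genes were positive. Among the 7, NRIP1 (0.00) and CREBBP (0.07) lay near 0 and changed sign in 8 and 3 of 21 alternative settings. In absolute size, NCOR1 exceeded 75.9% of all genes tested, TLE3 66.1%, PELP1 63.2%, NCOA2 47.8%, NCOA3 41.3%, EP300 34.2%, NCOA1 27.5%, CREBBP 3.97% and NRIP1 0.14%.

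**Figure D1:**
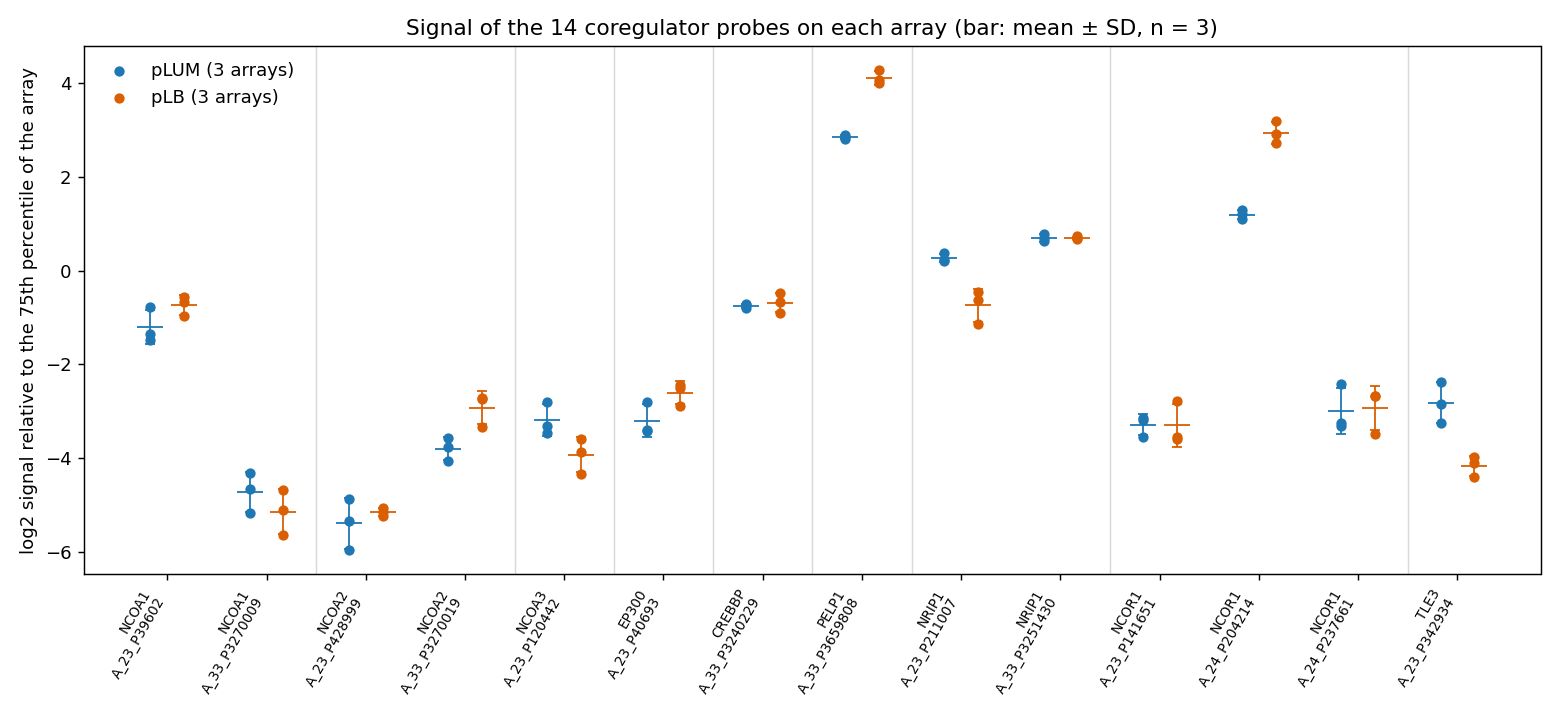
Signal of each of the 14 coregulator probes on the 6 arrays, as log2 relative to the 75th percentile of the array (vertical axis), with 1 point per array and bars for the mean ± SD (n = 3). PELP1 and the NCOR1 probe A_24_P204214 were brighter on the 3 pLB arrays than on the 3 pLUM arrays, TLE3 and the NRIP1 probe A_23_P211007 were dimmer, and the other 2 NCOR1 probes lay near -3 in both lines.

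The p160 coactivators NCOA1, NCOA2 and NCOA3 (SRC-1, TIF2 and AIB1) bind the hormone-occupied receptor directly and bring in acetyltransferases. None of the 3 was called, and they did not share a direction. NCOA1 gave log2 signals of -1.47, -1.35 and -0.79 on pLUM arrays 1, 2 and 3, and of -0.56, -0.66 and -0.97 on pLB arrays 1, 2 and 3, from a probe at chr2:24980905-24980964 on the plus strand (hg19). The lines overlapped, since pLB 3 lay below pLUM 3, and the log2 difference, pLB minus pLUM, was 0.47 ± 0.23 (SE) with a 95% interval of -0.07 to 1.02 and a limma adjusted p of 0.114. A dimmer NCOA1 probe 3′ of it, at chr2:24993512-24993571, gave a log2 difference of the opposite sign, -0.43 ± 0.31 (SE, limma adjusted p = 0.263), and was well above background on 3 pLUM and 2 pLB arrays.

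NCOA2 was dim on every array. The log2 signal of the probe A_33_P3270019 was -3.77, -3.57 and -4.05 in pLUM, and -2.73, -3.33 and -2.72 in pLB. All 3 pLB arrays were above all 3 pLUM arrays, as for 68.1% of all tested probes in one direction or the other. The log2 difference was 0.87 ± 0.23 (SE, 95% interval 0.32 to 1.42), or 1.83-fold, with a limma adjusted p of 0.0135, which left it under the 2-fold threshold. With another background correction (normexp) it was 0.08, with an adjusted p of 0.849. The other NCOA2 probe was well above background on 1 array of each line and was not tested.

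NCOA3, the p160 gene that is amplified in some breast cancers, moved the other way. Its probe at chr20:46283630-46283689, spotted 10 times per array, gave -3.46, -3.32 and -2.81 in pLUM and -4.33, -3.59 and -3.87 in pLB as log2 signals. The pLB arrays were all below the pLUM arrays. NCOA3 was 1.67-fold lower in pLB, a log2 difference of -0.74 ± 0.26 (SE, 95% interval -1.35 to -0.12) with a limma adjusted p of 0.0408, and again did not reach 2-fold.

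EP300 and CREBBP encode p300 and CBP, paired histone acetyltransferases that p160 proteins recruit to the receptor. EP300 gave log2 signals of -3.41, -3.40 and -2.80 in pLUM and -2.50, -2.44 and -2.89 in pLB, at chr22:41575033-41575092. The lines overlapped through pLUM 3 and pLB 3, and the log2 difference was 0.60 ± 0.23 (SE, 95% interval 0.05 to 1.15, limma adjusted p = 0.0586). With normexp it was 0.03. CREBBP was brighter and tighter, with log2 signals of -0.81, -0.72 and -0.74 in pLUM and -0.68, -0.90 and -0.48 in pLB at chr16:3775112-3775171. Its log2 difference of 0.07 ± 0.17 (SE) had a 95% interval of -0.33 to 0.47, so that a 2-fold difference in either direction lay outside the interval.

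PELP1, a large scaffold protein that carries LXXLL receptor-binding motifs and links ER to chromatin and to cytoplasmic kinases, was the brightest of the 14 probes. Its log2 signal was 2.81, 2.84 and 2.89 in pLUM and 4.05, 4.00 and 4.28 in pLB, from a probe at chr17:4574688-4574747 on the minus strand. The lines were apart by more than 1 log2 unit at their nearest arrays. The means were 2.85 ± 0.04 in pLUM and 4.11 ± 0.15 in pLB (SD, n = 3), which is 2.40-fold higher in pLB, a log2 difference of 1.26 ± 0.16 (SE, 95% interval 0.89 to 1.64, limma adjusted p = 0.000358). The call held under each of the 21 alternatives, over which the log2 difference ranged from 1.09 to 1.52. The probe contains the letters AATAAA, the canonical polyadenylation signal, as does the dimmer NCOA1 probe, A_33_P3270009, which was not called. No hg19 annotation was used here to place probes within coding or untranslated sequence.

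Among the corepressors, NRIP1 (RIP140) binds the agonist-occupied receptor and recruits C-terminal binding proteins and deacetylases, and is itself an E target gene in breast cancer cells. Its 2 probes disagreed. The brighter probe, A_33_P3251430 at chr21:16336974-16337033, gave log2 signals of 0.68, 0.78 and 0.62 in pLUM and 0.68, 0.73 and 0.69 in pLB. The log2 difference there was 0.00 ± 0.15 (SE), with a 95% interval of -0.34 to 0.35. The probe A_23_P211007 lies at chr21:16333904-16333963, with 3010 bases between the probes, and is nearer the 3′ end of this minus-strand gene. Its log2 signals were 0.20, 0.37 and 0.23 in pLUM and -0.45, -0.63 and -1.14 in pLB, with no overlap. This probe was 2.01-fold lower in pLB, a log2 difference of -1.01 ± 0.21 (SE, 95% interval -1.51 to -0.50, limma adjusted p = 0.0048). Being just past 2-fold, it lost the call in 6 alternatives, among them without pLUM 2 (-0.95) and without pLB 3 (-0.81). A test of probe against the rest of its gene (diffSplice in limma), chosen after the values were seen, gave a difference of 1.01 ± 0.27 (SE, adjusted p = 0.0103) between the 2 NRIP1 probes on the log2 scale.

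NCOR1, the nuclear receptor corepressor that holds histone deacetylase 3 on unliganded or antagonist-bound receptors, had the largest difference of the 9 genes, but on 1 of its 3 probes. The 3 probe sequences are shown because a pair of them overlap on the transcript and yet gave different results. They are written 5′ to 3′ as deposited, and capitals mark the bases that the overlapping pair share by position.
A_24_P204214: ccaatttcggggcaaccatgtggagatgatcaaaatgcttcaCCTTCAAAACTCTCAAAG
A_24_P237661: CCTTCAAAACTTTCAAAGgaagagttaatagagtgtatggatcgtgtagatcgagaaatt
A_23_P141651: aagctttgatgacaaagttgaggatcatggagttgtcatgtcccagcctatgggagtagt

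A_24_P204214 lies at chr17:16068377-16068436 and A_24_P237661 at chr17:16068335-16068394, both on the minus strand of hg19, with 18 bases in common. The shared stretch differs at 1 base, C12T, with the base of A_24_P204214 given first and the position counted from the 5′ end of the stretch. A_24_P237661 is also assigned in the files to the transcript of NCOR1P1, a transcribed NCOR1 pseudogene, so that its signal may include another transcript. A_23_P141651 lies 125451 bases away, at chr17:15942824-15942883, toward the 3′ end of the gene. Each probe has 60 bases, and none of the 14 coregulator probes shared a run of 20 bases with another probe of the array.

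The log2 signal of A_24_P204214 was 1.20, 1.28 and 1.09 in pLUM and 2.72, 2.91 and 3.19 in pLB. Every pLB array was more than 1 log2 unit above every pLUM array. The means were 1.19 ± 0.09 and 2.94 ± 0.23 (SD, n = 3), which is 3.36-fold higher in pLB, a log2 difference of 1.75 ± 0.18 (SE, 95% interval 1.32 to 2.17, limma adjusted p = 0.00014).

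The other NCOR1 probes were dim and did not separate the lines. A_24_P237661 gave -3.25, -2.42 and -3.31 in pLUM and -2.67, -3.48 and -2.67 in pLB, a log2 difference of 0.06 (limma adjusted p = 0.89). A_23_P141651 gave -3.55, -3.13 and -3.19 in pLUM and -3.59, -3.55 and -2.77 in pLB, a log2 difference of -0.01 (limma adjusted p = 0.973). In the same test of probe against the rest of the gene, A_24_P204214 stood 1.72 ± 0.35 (SE) above the other NCOR1 probes (adjusted p = 0.000908), where 36% of all probes of genes with several tested probes passed. With the probes of NCOR1 averaged, the log2 difference was 0.60 with a limma adjusted p of 0.046, and NCOR1 was no longer called. Such disagreement was common on this array: among 4286 genes measured by several tested probes, 38.3% had both called and uncalled probes and 1.98% had probes called in opposite directions.

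TLE3 is a Groucho-family corepressor that binds FOXA1 and other transcription factors rather than the receptor itself. Its probe at chr15:70341196-70341255 gave log2 signals of -3.24, -2.84 and -2.37 in pLUM and -4.11, -4.40 and -3.98 in pLB. The pLB arrays were all below the pLUM arrays. The means were -2.82 ± 0.44 and -4.16 ± 0.22 (SD, n = 3), which is 2.54-fold lower in pLB, a log2 difference of -1.35 ± 0.25 (SE, 95% interval -1.94 to -0.75, limma adjusted p = 0.00276). TLE3 was dim in both lines, and with normexp the log2 difference of -0.95 (adjusted p = 0.0111) was under 2-fold.

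**Figure D2:**
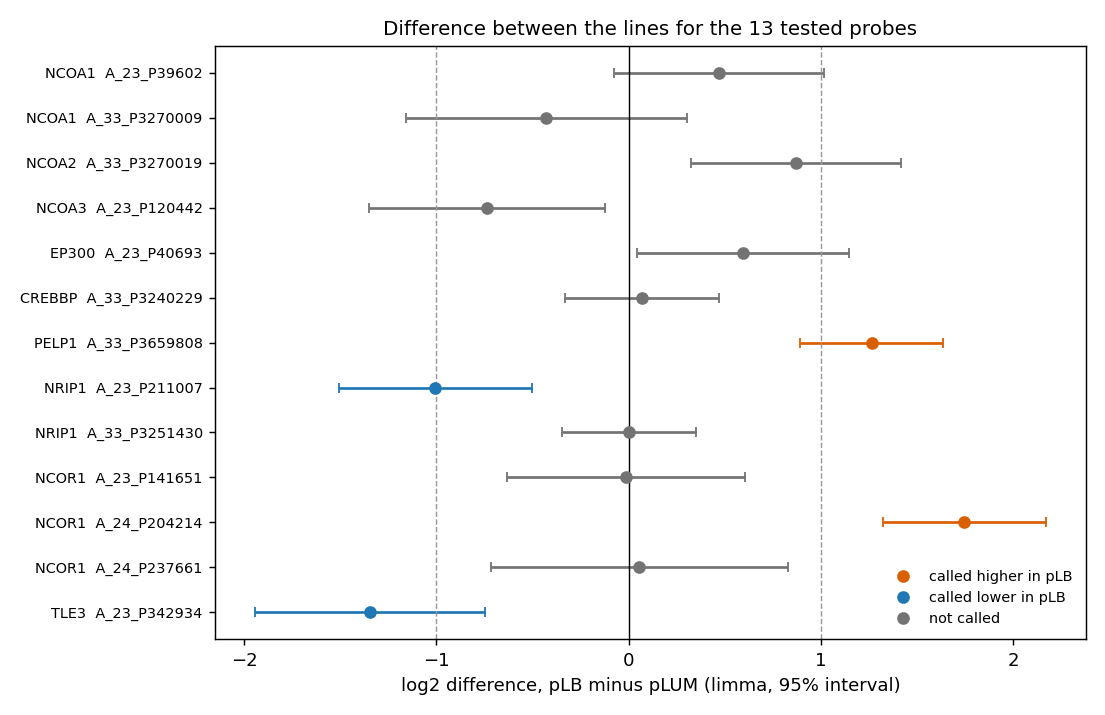
Log2 difference of pLB minus pLUM for the 13 tested probes (horizontal axis), with 95% intervals from limma and dashed lines at 2-fold. The NCOR1 probe A_24_P204214 at 1.75 and PELP1 at 1.26 were called higher, TLE3 at -1.35 and the NRIP1 probe A_23_P211007 at -1.01 were called lower, and the other 9 probes were not called.

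The 3 pLUM arrays and pLB 1 shared a slide, and pLB 2 and pLB 3 were on another. With slide as a block, which rests on pLB 1 against the 3 pLUM arrays, the log2 difference was 1.53 for NCOR1, 1.21 for PELP1 and -1.29 for TLE3, each still called. NCOA3 was then called lower, at -1.14 (limma adjusted p = 0.0222), and NCOA2 higher, at 1.07 (adjusted p = 0.0318), whereas the NRIP1 probe A_23_P211007, at -0.72, was not called.

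**Figure D3:**
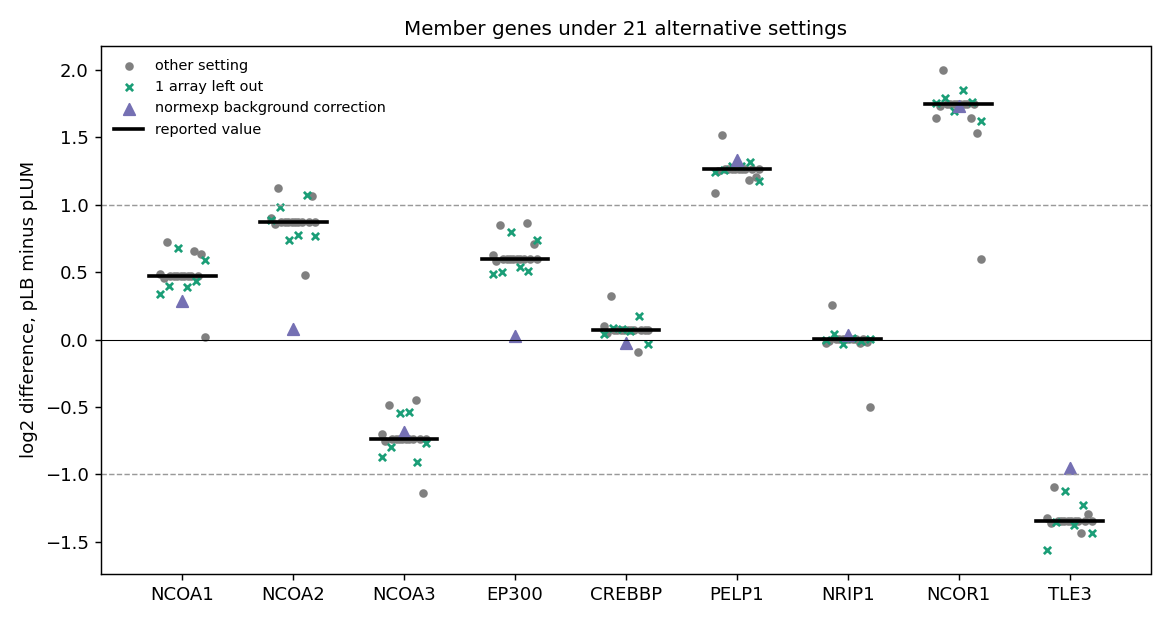
Log2 difference of pLB minus pLUM for the representative probe of each of the 9 genes (vertical axis) under the alternative settings, with a black bar for the reported value and dashed lines at 2-fold. PELP1 stayed between 1.09 and 1.52, NCOR1 fell to 0.60 only where its probes were averaged, and with normexp NCOA2 and EP300 lay near 0 and TLE3 at -0.95.

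Other coregulators of ER, listed by role, were examined in the same fit to set the 9 genes beside their pathway. Of 23 further coactivators, 22 were tested (all but PPARGC1A), 1 was called higher in pLB, 5 lower and 16 were not called, against 22.7% of all genes higher and 23% lower. The counts depended on the settings. Under spike-in scaling 5 were higher and 3 lower, where 58.4% of all called probes were higher, in place of 48.0%. Without the fold threshold 7 were higher and 7 lower, where 63.4% of all genes had an adjusted p under 0.05 in limma. Their median log2 difference was 0.10, and that of all genes was 0.04. SMARCA4, the BRG1 ATPase of the SWI/SNF chromatin remodeler, was the coactivator called higher, from 4.35 ± 0.06 in pLUM to 5.64 ± 0.29 in pLB (log2, SD, n = 3), or 2.44-fold (limma adjusted p = 0.000861). MED14, a backbone subunit of the Mediator complex, was lower, from 1.82 ± 0.33 to -0.67 ± 0.39 (log2, SD, n = 3), or 5.60-fold. The acetyltransferases KAT2B (PCAF) and KAT2A (GCN5) were 3.15-fold and 2.16-fold lower. UBE3A, a ubiquitin ligase that also acts as a receptor coactivator, was 2.70-fold lower on its brighter probe, whereas the lines overlapped on the other (log2 difference -1.22, limma adjusted p = 0.164). The RNA helicase DDX17 was 2.18-fold lower on the brighter of its probes, with a log2 difference of -0.46, not called, on the other. DDX17 lost the call in 6 of the 21 alternatives, among them without pLUM 2, pLB 1 or pLB 2 in turn (-1.01, -0.86 and -1.05), and KAT2A lost it with spike-in scaling (-0.86).

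Of 26 further corepressors, 24 were tested (all but NR0B1 and NR0B2), 5 were called higher, 2 lower and 17 were not called, against the same 22.7% and 23% of all genes, with a median log2 difference of 0.14. SIN3A, the scaffold of the Sin3 repressor complex, was 3.23-fold higher, and HDAC2, a histone deacetylase of that complex, was 2.18-fold higher. HDAC2 fell under 2-fold with slide as a block (0.90), with array weights (0.98) and without pLB 3 (0.99). DDX54, a helicase reported to repress ER, was 2.97-fold higher on its brighter probe, with a log2 difference of 0.55, not called, on the other. LCOR, a ligand-dependent corepressor, was 3.45-fold lower in pLB.

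The Groucho family to which TLE3 belongs did not move as a block. TLE2 fell from 2.71, 2.54 and 2.97 in pLUM to 0.70, 0.47 and 0.72 in pLB on the log2 scale, which is 4.31-fold lower (limma adjusted p = 5.77e-05). The probe that represented TLE4 was above background on 3 of 3 pLB arrays but on 0 of 3 pLUM arrays, and was at least 12.7-fold higher in pLB. Of the 5 tested TLE4 probes 4 were called higher, each well above background on 3 pLB arrays and 0 pLUM arrays. These 4 passed the filter only through pLB, so that their agreement is not independent support. The other, A_33_P3302657, well above background on 3 pLUM arrays and 1 pLB array, gave -0.80 (limma adjusted p = 0.426). The bound of the representative TLE4 probe depended on the background, and was at least 2.30-fold with normexp. A bound sets the mean of the bright line against the higher, on each dim array, of the signal of the probe and the lowest signal well above background. TLE1 and AES, named here after their values were seen, were not called, with log2 differences of -0.08 and -0.41 on the representative probes. None of the 5 tested TLE1 probes was called, but they did not share a direction. They ranged from -1.38 (A_33_P3217731, limma adjusted p = 0.058) to 0.86 (A_33_P3379775, limma adjusted p = 0.00557). Thus of the 5 family members measured, TLE2 and TLE3 were called lower in pLB and TLE4 higher by the representative probe.

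**Figure D4:**
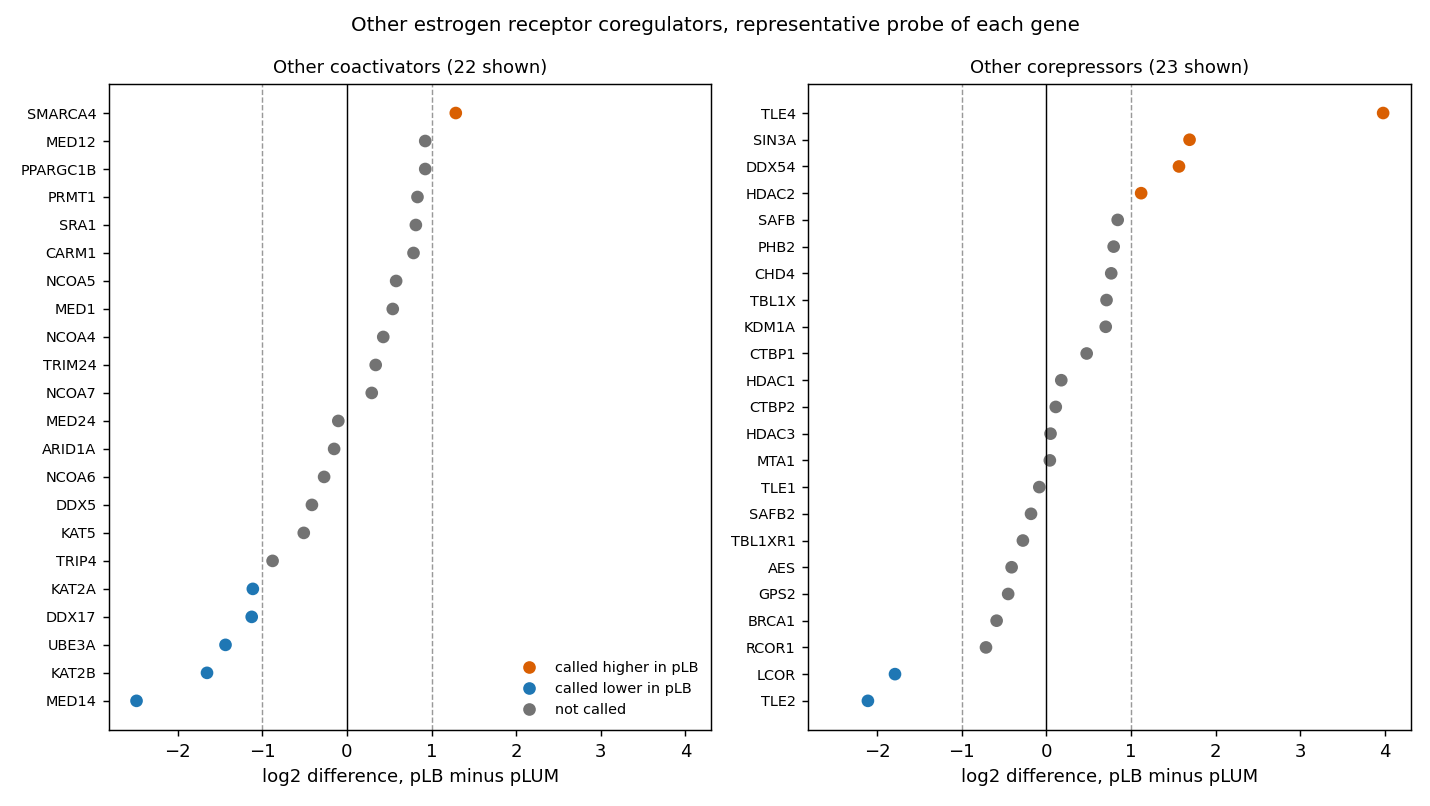
Log2 difference of pLB minus pLUM (horizontal axis) for the probe that represented each of 22 other coactivators and 23 of the other corepressors, with dashed lines at 2-fold and color for the call. Among coactivators 1 lay past 2-fold on the higher side and 5 on the lower, among the corepressors shown 4 and 2, and the point of TLE4 is its measured difference, which stands for a fold of at least 12.7.

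The profile of NCOR1 over the 6 arrays was shared by many genes. The genes most like its representative probe were RNF224, CDH26 and SMARCB1, each with a Pearson r of 0.999 over the 6 arrays, which were divided into 2 lines. Their log2 differences were 0.94, 2.82 and 1.29. With lines this far apart a high r was frequent, and 2916 genes had an r above 0.95 with NCOR1.

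The promoters of the 9 genes were searched for the estrogen response element in RefSeq sequences of GRCh38.p14, from 250 bases before to 50 after each transcription start. For 8 of the genes, all but NCOA2, 16 promoters were listed, and each motif was read on both strands. The full palindrome, in which GGTCA and its reverse complement stand 3 bases apart, was found in 0 of 16, and in 0.057% of all 35116 promoters. The arm GGTCA, counted with or without its partner, occurred in 1 of 16, at NRIP1, where 37.4% of all promoters held it. The GC box GGGCGG occurred in 8 of 16 (45% of all promoters) and the letters TATAAA in 3 of 16 (11.5%). These letters are a description of the sequence and not of binding.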

How the data were processed

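RNA of 3 sorts each of pLUM and pLB cells was measured on 1-colour Agilent arrays. Each file as deposited by the authors is scanner output of Agilent Feature Extraction 10.10.1.1 and gives a background-corrected linear intensity for every spot, with no normalization between arrays. Probe names and positions (hg19) are those of the files. Spots flagged as outliers (296 to 387 per array) were dropped and replicate spots averaged. The deposited intensity was divided by the 75th percentile of its array and expressed as log2. Between 21285 and 22775 probes per array were well above background, and the number of arrays limits the precision. The comparison used lmFit and eBayes of limma 3.58.1 (R 4.3.3). In simulated data for this comparison, with 200 of 23105 probes changed 4-fold, the fit recovered 138 (69%) with 4 false calls. That share of changed probes is far below the 45.6% called here, so that these figures do not carry over to the real arrays. Names matched a RefSeq table (GRCh38.p14) for 14993 of 17670 genes. Same-numbered samples were not treated as pairs, and the labels do not say whether they were. The 9 genes, the lists and the tests were chosen with earlier results of these data known. Named in the text are the 9 genes, of each further list the called genes (at most 5 in each direction, with 1 corepressor counted but not reported here), the ER context genes, and the 3 genes most like NCOR1. The alternatives were other background corrections (normexp with offset 50), scalings, filters on dim probes, call thresholds, tests, a mean over probes, slide or replicate number as a block, and omission of each array.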

Additional observations from a re-analysis of the deposited data

How the results depend on the processing

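PELP1 kept its call in all 21 alternatives, NCOR1 lost it with the mean of the probes and TLE3 with normexp. Of the 9 genes, the number called lower in pLB was 0 with normexp, and 2 without a fold threshold or with slide as a block. The number called higher was 1 with the mean of the probes, and 3, with NCOA2 added, without a fold threshold, with spike-in scaling (1.12, adjusted p = 0.024), with slide as a block and without pLB 2 (1.07). Of their probes, 0 were called lower with normexp, 1 with spike-in scaling and 1 with array weights. With an array left out, 1 to 2 probes were called lower, 1 without pLUM 2 and 1 without pLB 3. Of the further coactivators, 5 were called higher with spike-in scaling, 7 without a fold threshold, 3 with array weights, 3 with slide as a block, 2 with the mean of the probes, and 1 to 2 with an array left out (2 without pLUM 1, pLUM 3 or pLB 3), and 3 were called lower with spike-in scaling. Of the further corepressors, 10 were called higher and 5 lower without a fold threshold. At that setting 63.4% of all genes were called in one direction or the other. DDX17 lost its call in 6 alternatives, HDAC2 in 3 and KAT2A in 1. Differences of 5 probes that were not called changed sign. CREBBP was -0.025 with normexp, -0.094 with array weights and -0.034 to 0.17 with an array left out. NRIP1 was -0.024 with quantile normalization, -0.012 with median scaling, -0.022 with array weights, -0.014 with slide as a block, -0.50 with the mean of the probes (limma adjusted p = 0.028) and -0.032 to 0.045 with an array left out. The NCOR1 probe A_24_P237661 was -0.27 with normexp, -0.56 with array weights and -0.10 to 0.34 with an array left out. The NCOR1 probe A_23_P141651 was 0.037 with quantile normalization, 0.24 with spike-in scaling and -0.28 to 0.13 with an array left out. The NCOA1 probe A_33_P3270009 was 0.026 with slide as a block. The causes were not tested. Spike-in scaling moved the median of all probes by 0.25 and the share of calls that were higher from 48.0% to 58.4%. With normexp the median was -0.26, and 3004 probes were called higher and 4033 lower, in place of 5054 and 5476. By the methods' t-test at their threshold, with the 2-fold limit, 4931 probes were higher and 5199 lower, and 4759 and 4861 after Benjamini-Hochberg adjustment. With the replicate number as a block, 4986 probes were called higher and 5383 lower, and 2 of the 9 genes were called higher and 1 lower, as without it. The deviations of same-numbered samples from the mean of their line had correlations of -0.27, -0.10 and -0.22. With 3 arrays per line, each centered on its own mean, these values cannot decide whether the samples were paired. Dim probes limit the rest: NCOA2, NCOA3, EP300 and TLE3 lay near -3 to -4, and array floors were at -5.71 to -4.75.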
